A study of Mus musculus with 6 samples.

Results

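Kinesins are motor proteins that walk along microtubules, and their light chains tie some of them to cargo. On a mouse array, the probes named for a kinesin (Kif followed by a number, or Kifc1 to Kifc3) or for a kinesin light chain (Klc1 to Klc4) were selected by their names. They stood for 45 of 34797 gene names on the array (72 of 55681 non-control probes and 81 of 59305 spots), 25 of them with 1 probe and 20 with several. The cells were G1E-ER-GATA-1, mouse red cell precursors grown as a line in which the GATA-1 gene is missing and its place is taken by an introduced fusion, ER-GATA-1, of that factor with the estrogen receptor's hormone-binding region; adding estradiol activates the fusion and with it maturation. The 6 samples fell into 2 groups of 3: one received siRNA against Foxo3, a forkhead transcription factor, and the other nontargeting siRNA. Both groups were electroporated with their siRNA at 0 h and again at 24 h, both received estradiol at 24 h, and RNA was taken from both at 48 h, so every sample had 24 h of GATA-1 activity. From each sample, 0.1 µg of RNA was labelled with Cy3 and read on its own 1-colour Agilent array. Whether the replicates are independent cultures is not stated in the labels, and the p-values therefore reflect the spread among these 6 samples, which may be technical.

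Mitotic kinesins build, move and take apart the spindle: some push its poles apart, some crosslink or shorten microtubules, some move chromosomes, and some bring regulators to the midzone where the cell divides. Most of them are made in the later part of the cell cycle and are low in cells that have stopped dividing. Transport kinesins carry vesicles, organelles and RNA through cells that do not divide as well as through those that do, and conventional kinesin pairs a Kif5 heavy chain with a light chain that binds cargo. Red cell precursors pass through a few last divisions during maturation and then lose their nucleus, most of their organelles and their microtubules.

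Levels are given as scaled log2 signal, which is the log2 of a probe's background-subtracted signal minus the 75th percentile of that array, so that 0 is the array's 75th percentile and 1 unit is a doubling. A level belongs to its own probe and is not set against that of another probe. Differences are log2 fold changes, Foxo3 siRNA minus nontargeting siRNA, from limma's test over 19213 features (the brightest usable probe of each gene), and a gene was called at a Benjamini-Hochberg adjusted p under 0.05. The median difference over all features was -0.15, and it became 0.16 when each array was scaled to its median instead, so small differences are read against that shift.

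The erythroid label was borne out: the 10 erythroid markers found on the array, among them Alas2, Hba-a1 and Slc4a1, were well above background on all 6 arrays. A probe for the RefSeq messenger RNA of Foxo3 was lower by 2.42 (SE 0.337, limma adjusted p = 0.00512 over all probes), while a probe for another transcript of the gene differed by 0.26 (adjusted p = 0.243). Foxo3 siRNA replicate 3 stood apart, with 50.2% of its spots at a fill-in value that the scanner software writes for signals within background, against 16.7% to 29.3% on the other arrays. It had 20343 spots well above background against 30619 to 37532, and its lowest signal was 24.1 against 3.48 to 4.29, so dim probes are bounded less tightly on that array. All 6 arrays lay on 1 slide and were read in 1 scan, but in 2 rows: the 3 nontargeting arrays and Foxo3 siRNA replicate 1 in row 1, Foxo3 siRNA replicates 2 and 3 in row 2.

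Of the 45 genes, 34 had a probe well above background on every array of at least 1 group and were tested, and 16 of these (47.1%) were called, 11 higher and 5 lower with Foxo3 siRNA. Over all features tested, 27.6% were called, 13.8% higher and 13.8% lower. Higher features made up 49.9% of all calls, and 78% of them under median scaling. The calls were split by role, with role lists written when earlier results of these data were known. Among mitotic kinesins 9 of 10 tested genes were higher and none lower, with a median difference of 1.73; Kif2a, which acts at spindle poles as well as in neurons and was called lower, is counted with the remaining kinesins. Among transport kinesins and light chains 1 of 14 was higher and 4 were lower, with a median of -0.18, close to the median of all features. Among the remaining kinesins 1 was higher and 1 lower of 10. Kif2c, within background on all 3 nontargeting arrays, and Klc3 and Kif5a, each within background on 1 Foxo3 siRNA array, entered these counts through the group in which they were high. With probes required to be well above background on all 6 arrays, 8 of 8 mitotic genes were higher, and of 10 transport kinesins and light chains 1 was higher and 2 were lower with a median of 0.055, where 41.7% of all features were called and their median was -0.000543.

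**Figure D1:**
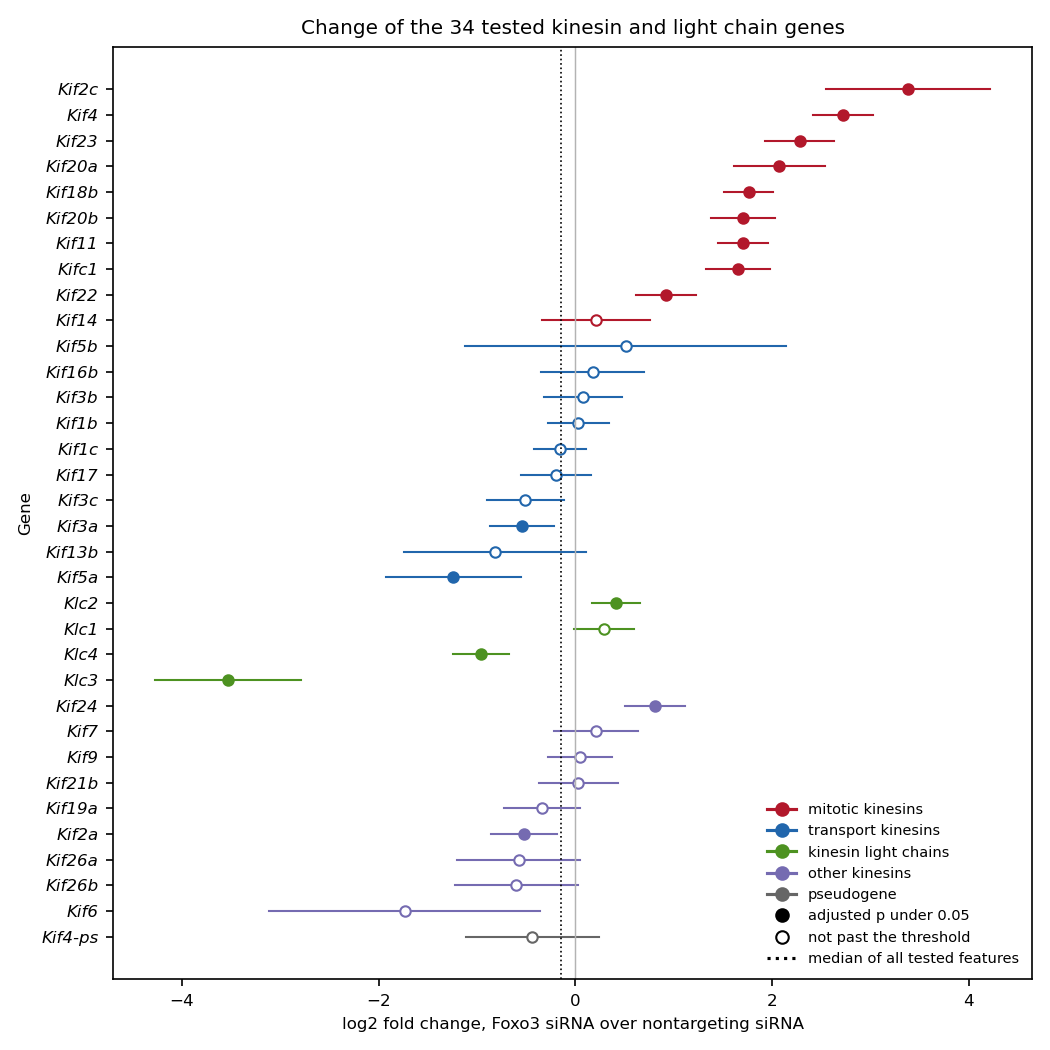
Difference of each of the 34 tested genes (x axis, log2 fold change, Foxo3 siRNA over nontargeting siRNA, 3 arrays each), with its 95% confidence interval as a bar, coloured by role; filled points passed adjusted p under 0.05 and the dotted line is the median of all features. The 9 filled mitotic points run from 0.92 to 3.38, while Kif14 at 0.21 lies among the transport kinesins; the light chain Klc3 at -3.53 is the lowest of the 34.

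Both tested motors that hold the spindle open or bundle its microtubules rose. Kif11 (also called Eg5), which slides antiparallel microtubules apart and so separates the spindle poles, read -0.30, -0.25 and -0.27 with Foxo3 siRNA (replicates 1 to 3, in that order here and below) and -2.09, -1.89 and -1.94 with nontargeting siRNA. The groups were far apart against a spread within groups of under 0.25, and the difference was 1.70 (SE 0.106, adjusted p = 0.000573), or 3.25-fold. Kifc1, a minus-end-directed motor that bundles spindle microtubules and gathers extra centrosomes, read 1.83, 1.78 and 1.74 against 0.11, 0.36 and -0.07. All 3 Foxo3 siRNA arrays were above all nontargeting ones, by 1.65 on average (SE 0.137, adjusted p = 0.00113); a near-identical gene, Kifc5b, is named on the array and was not tested, so the signal of the pair cannot be assigned with certainty. Kif15, which can stand in for Kif11 at the spindle, was well above background on 2 Foxo3 siRNA arrays and on 0 nontargeting ones, and was therefore not tested. Its signals were -1.80, -1.27 and -1.62 against -4.85, -4.32 and -3.83. The groups did not overlap. Measured against the lowest signal well above background on each nontargeting array, or its own signal if higher, Kif15 was 5.41-fold higher. That is not a strict lower limit, since the same probe differed by 1.86 log2 units in the authors' deposited table.

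The chromosome-bound motors rose too. Kif4, which rides on chromosome arms and sets the length of the midzone together with Prc1, read 0.23, 0.53 and 0.39 against -2.22, -2.37 and -2.44. That is a rise of 2.73 (SE 0.128, adjusted p = 0.000353), or 6.61-fold, and every Foxo3 siRNA array was more than 2 log2 units above every nontargeting array. Kif22 (Kid), which pushes chromosome arms towards the spindle equator, read 3.80, 3.85 and 3.60 against 2.92, 2.90 and 2.67. It rose by 0.92 (SE 0.127, adjusted p = 0.0046), the smallest of the 9 rises and the 1 under 2-fold.

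Among the motors that shorten microtubules, Kif2c (MCAK), which corrects faulty attachments at the centromere, gave -1.27, -1.06 and -1.17 against -4.25, -5.39 and -4.01 on its tested probe. The 3 Foxo3 siRNA arrays were well above background and the 3 nontargeting arrays were not. The fitted difference of 3.38 (SE 0.348, adjusted p = 0.00197) therefore has no firm size. Against the lowest signal well above background on each nontargeting array, Kif2c was 7.43-fold higher. That is not a strict lower limit, since with normexp background correction the difference was 1.35. A second Kif2c probe, too dim to be tested, read -1.91, -1.45 and -1.63 against -3.22, -4.12 and -4.05. It pointed the same way with no overlap. Kif18b, which trims the astral microtubules between the spindle and the cell edge, read 0.80, 0.92 and 1.01 against -0.87, -0.83 and -0.85. Its 3 nontargeting values lay within 0.04 of each other, and the rise was 1.76 (SE 0.105, adjusted p = 0.000537). The related Kif18a, which steadies chromosomes at the equator, was well above background on 2 arrays of each group and was not tested; it read -1.41, -1.39 and -1.70 against -1.70, -3.66 and -4.04. Nontargeting replicate 1 (-1.7008) lay just under the lowest Foxo3 siRNA value there (-1.6999), while the other 2 nontargeting arrays were about 2 units lower.

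Of the motors of the midzone and of cytokinesis, 3 rose and Kif14 did not pass. Kif23 (MKLP1), the motor subunit of centralspindlin, read 0.59, 1.04 and 0.72 against -1.51, -1.41 and -1.56, a rise of 2.28 (SE 0.145, adjusted p = 0.00061), or 4.86-fold. Kif20a (MKLP2), which brings the chromosomal passenger complex to the midzone, read 1.15, 1.40 and 1.12 against -1.22, -0.56 and -0.77, a rise of 2.07 (SE 0.193, adjusted p = 0.00149). Kif20b, also needed to complete cytokinesis, read 0.33, 0.61 and 0.64 against -1.32, -1.16 and -1.05, a rise of 1.71 (SE 0.137, adjusted p = 0.00104). In these 3 genes the lowest Foxo3 siRNA array stood more than 1 unit above the highest nontargeting array. Kif14, which works with Prc1 and citron kinase at the midbody, read -1.57, -2.10 and -2.22 against -2.09, -1.92 and -2.52. These groups overlap, Foxo3 siRNA replicate 3 was not well above background, and the difference of 0.21 (95% interval -0.34 to 0.76) did not pass (adjusted p = 0.49); under normexp background correction it was -0.05. This probe is annotated to another transcript of the gene, and the probe for the RefSeq messenger RNA of Kif14 was above background on 0 of 6 arrays.

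**Figure D2:**
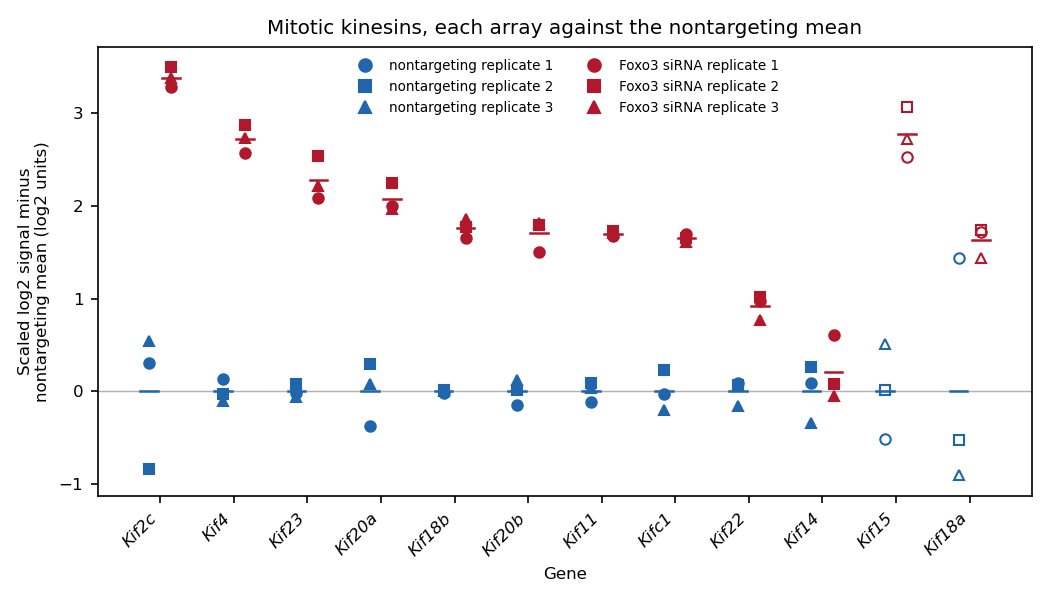
Each array's scaled log2 signal minus the mean of the 3 nontargeting arrays (y axis, log2 units) for the 12 mitotic kinesins (x axis), with 1 symbol per replicate and a dash at each group's mean; Kif15 and Kif18a, open symbols, were too dim to be tested. Red and blue points do not mix in the 9 genes from Kif2c to Kif22, and they mix in Kif14. In Kif18a 1 blue point lies just under the lowest red one.

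Of the mitotic genes tested, 8 were called and at least 2-fold higher, and over all features 4.10% were; Klc3 and Kif5a, described below, were the 2 kinesin genes called and at least 2-fold lower, against 3.42% of all features. The groups did not overlap in 22 of the 34 kinesin genes, 12 higher and 10 lower, where 51.0% of all features showed no overlap, 23.0% higher and 28.0% lower, so separation of the arrays alone is no mark of these genes. Without Foxo3 siRNA replicate 3, 10 mitotic genes were called, since Kif15 was then bright enough to be tested (2.80, adjusted p = 0.0102), and 14% of all features were called. Kif2c was then represented by its other probe and differed by 2.12. With slide row as a block 9 mitotic genes were called, and within row 1 alone (Foxo3 siRNA replicate 1 against the 3 nontargeting arrays) 6 were, where 8.07% and 2.89% of all features were called. In row 1 Kif20a (2.00, adjusted p = 0.0574) and Kif22 (0.97, adjusted p = 0.0792) lost their call at differences close to those over all arrays, and Kif2c, there represented by its other probe, gave 1.89 (adjusted p = 0.0973). With 1 Foxo3 siRNA array in that row, the spread came from the nontargeting arrays alone.

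Genes that act with these motors were higher as well. From a list of 13 partners of the mitotic kinesins, 11 of 12 tested genes were called higher and none lower, with a median of 2.12. This list, too, was written with earlier results of these data known. Over all features 13.8% were called higher and 13.8% lower. Birc5, the survivin subunit of the chromosomal passenger complex, was higher by 3.19, and Cenpe, a kinesin of the kinetochore that the name rule does not take in, by 3.00. Aurka, a kinase that activates spindle assembly, was higher by 2.64, and Prc1, the microtubule crosslinker that Kif4 and Kif14 bind, by 2.48. Incenp, the scaffold of the passenger complex, differed by 0.26 and was not called. General proliferation markers moved the same way, with 5 of 6 called higher: Cdk1 by 2.93, Ccna2 by 2.65, Mki67 by 2.38 and Ccnb1 by 1.88. Their summed linear level was 117 to 133 on the Foxo3 siRNA arrays and 35.0 to 37.9 on the nontargeting arrays, in units of each array's 75th percentile, and their part in the rise of the mitotic kinesins was not tested. In RNA from a whole culture, more or fewer cells of a kind and more or less RNA per cell cannot be told apart.

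Promoter sequences were read for these genes because the data hold a group that moved together. RefSeq windows (GRCm38.p6) of 250 bases before to 50 after the annotated start were at hand for 35 of the 45 genes, in 39 windows; those not matched were Kif13b, Kif19a, Kif20a, Kif21b, Kif4-ps, Kif5a, Kif5b, Kifc2, Kifc3 and Klc2. The cell cycle genes homology region, or CHR, is a short element known from promoters of genes expressed in late cell cycle, often with CCAAT boxes upstream. Matches to TTTGAA (for the CHR) and CCAAT were searched on both strands; neither set of letters contains the other. The CHR letters were in the windows of 10 of 11 mitotic genes, all but Kif18a, of 1 of 13 transport kinesin and light chain genes (Kif1a), of 2 of 11 others (Kif26b and Kif27), and in 17.89% of all 32851 windows. CCAAT letters were in 7 of 11 mitotic genes, 5 of 13 transport and light chain genes and 5 of 11 others. Of all windows, 37.41% held them. Both motifs together were in 7 of 11 mitotic genes, 0 of 13 transport and light chain genes, 2 of 11 others (Kif26b and Kif27) and 6.95% of all windows. A match lay wholly within 30 bases of the start, a distance picked after the positions were seen, in 8 of the 11 mitotic windows, 0 of 15 transport and light chain windows, 1 of 13 windows of others (Kif26b, which was not called) and 2.9% of all windows.

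Shown first are the 60 bases before the start of 2 mitotic genes that rose and have both motifs there, 5′ to 3′ on the gene's strand, with 2 stretches in capitals: TTCAAA, which is the reverse complement of the CHR letters, and ATTGG, which is that of the CCAAT letters. Kif11 lies at chr19:37376322-37376381 (plus strand) and Kif22 at chr7:127042421-127042480 (minus strand).
Kif11: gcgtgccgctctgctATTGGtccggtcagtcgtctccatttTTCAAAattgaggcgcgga
Kif22: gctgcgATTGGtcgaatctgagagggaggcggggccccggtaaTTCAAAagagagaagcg
In Kif11 the CHR letters began at position -19 and the CCAAT letters at -45, and in Kif22 at -17 and -54, counting the annotated start as 1 and the base before it as -1. Next are 30 bases around the match in other mitotic genes, from chr11:102925104-102925133 (minus) for Kif18b, chr19:34922353-34922382 (plus) for Kif20b, chr9:61946780-61946809 (minus) for Kif23, chrX:100626072-100626101 (plus) for Kif4, chr17:33890615-33890644 (minus) for Kifc1, chr9:122951050-122951079 (plus) for Kif15 and chr4:117178858-117178887 (minus) for Kif2c.
Kif18b: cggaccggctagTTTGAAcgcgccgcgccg
Kif20b: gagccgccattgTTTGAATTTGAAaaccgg
Kif23: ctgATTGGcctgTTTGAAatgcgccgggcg
Kif4: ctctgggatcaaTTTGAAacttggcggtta
Kifc1: cggaggttgaaaTTCAAAagtggcgggtgt
Kif15: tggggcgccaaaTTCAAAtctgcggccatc
Kif2c: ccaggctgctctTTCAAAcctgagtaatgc
The match began at positions 4, 8, 3, 20 and 2 in Kif18b, Kif20b, Kif23, Kif4 and Kifc1, at -19 in Kif15 and at -103 in Kif2c; Kif20b had a second one directly after the first. In Kif14, the tested mitotic gene that did not pass, the match lay at -228. The annotated starts were not checked against where transcription begins. The distances given, those of Kif14, Kif2c and Kif1a among them, may therefore not be distances from a transcription start. For contrast, the 60 bases before the start of 2 genes that fell, Kif3a at chr11:53567309-53567368 (plus) and Klc3 at chr7:19404105-19404164 (minus), hold no CHR letters, and Kif3a has CCAAT letters.
Kif3a: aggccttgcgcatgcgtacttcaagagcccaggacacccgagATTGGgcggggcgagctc
Klc3: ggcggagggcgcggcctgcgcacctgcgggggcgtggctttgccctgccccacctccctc
The forkhead letters GTAAACA were in 0 of the 39 kinesin windows and in 3.65% of all windows. The GATA letters AGATAA or TGATAA were in the windows of Kif2c and Klc3 and in 18.61% of all. A match is a description of letters, not a shown binding site, and the lack of one says only that these letters are not in the window.

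**Figure D3:**
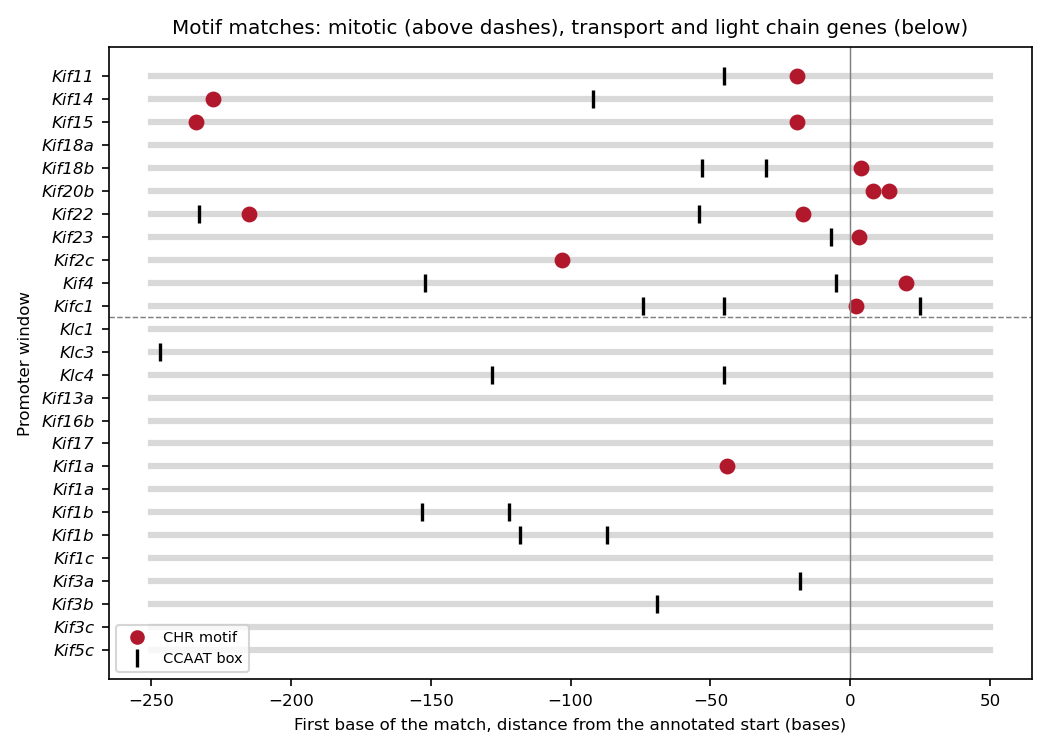
Position of CHR letters (red points) and CCAAT letters (black ticks) in the promoter windows of mitotic kinesin genes, above the dashed line, and transport kinesin and light chain genes, below it (x axis, bases from the annotated start; grey bars, the window; a gene with 2 starts has 2 rows). Red points gather around the start in 8 mitotic genes and there is 1 below the line, in a Kif1a window.

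Of the 10 transport kinesins tested, 0 were called higher and 2 lower, which is 20% called where 27.6% of all features were. Kif5a, a heavy chain of conventional kinesin best known from neurons, read -2.23, -1.49 and -1.73 against -1.08, -0.49 and -0.17. The groups did not overlap and the fall was -1.24 (SE 0.286, adjusted p = 0.0237), or 2.36-fold lower. Its probe was printed on 10 spots of each array, all well above background on the other 5 arrays but 2 of 10 on Foxo3 siRNA replicate 3; without that array the difference was -1.28 and the call was lost (adjusted p = 0.0638). It was also lost without Foxo3 siRNA replicate 1 (adjusted p = 0.057), nontargeting replicate 2 (adjusted p = 0.089) or nontargeting replicate 3 (adjusted p = 0.0602), and in 8 of 18 alternatives in all. Another Kif5a probe, also annotated to a RefSeq messenger RNA, was above background on 0 arrays of either group, and its groups overlapped. The fall therefore rests on 1 probe. Kif3a, a motor subunit of heterotrimeric kinesin-2, which carries cargo into cilia and through the cytoplasm, read 1.99, 2.02 and 1.80 against 2.28, 2.51 and 2.64. It fell by 0.54 (SE 0.136, adjusted p = 0.0307), again with no overlap, and a second probe fell by 0.60. Under median scaling its difference was -0.24 and not called (adjusted p = 0.588), and without Foxo3 siRNA replicate 3 it was -0.47 (adjusted p = 0.0996); the call was lost in 11 of 19 alternatives.

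The other transport kinesins did not pass. The partner subunits of Kif3a gave 0.08 for Kif3b (95% interval -0.32 to 0.48) and -0.51 for Kif3c, for which 1 nontargeting array was left out as an outlier spot (adjusted p = 0.0626). Kif13b, which carries membrane and signalling cargo, gave -0.82 with a wide interval of -1.74 to 0.11. Kif1b and Kif1c, carriers of vesicles and organelles, gave 0.03 and -0.16, and their intervals of -0.28 to 0.35 and -0.42 to 0.11 lie inside a 2-fold change either way; a second and dimmer Kif1b probe gave 0.75 (adjusted p = 0.319). Kif16b, a motor of early endosomes, gave 0.18, and Kif17, known from dendrites and cilia, gave -0.20. Kif5b, the conventional kinesin heavy chain of most tissues, read -3.26, -2.96 and -0.56 against -2.68, -3.00 and -2.65 on a dim probe. Foxo3 siRNA replicate 3 alone was high, and the interval of the difference, -1.12 to 2.14, is too wide to place the gene. Kif13a, Kif1a, Kif5c, Kifc2 and Kifc3 were not well above background on every array of either group and were not tested; the probes of Kif13a, Kif1a and Kif5c were above it on 0 of 6 arrays.

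The light chains went both ways. Klc3, a light chain known from developing sperm, where it binds mitochondria, read -1.83, -2.30 and -3.05 against 0.94, 1.36 and 1.12. Every Foxo3 siRNA array was more than 2 units under every nontargeting array. The fall was 3.53 (SE 0.309, adjusted p = 0.00128) or 11.6-fold, with 2 of 3 Foxo3 siRNA arrays still above background. Over 18 alternatives the difference ran from -3.815 to -2.667, so its size is less firm than its direction. A second Klc3 probe read -4.46, -4.19 and -3.61 against -1.39, -1.65 and -1.87. The groups did not overlap, but only 1 of the 3 Foxo3 siRNA arrays was above background, so the fitted difference of -2.45 (adjusted p = 0.00199 over all probes) has no firm size. The probes lie at chr7:19979862-19979921 and chr7:19980726-19980785 in the mm9 coordinates of the array's annotation, which are not those of the promoter windows. Klc4, a light chain of broad expression, read 3.62, 3.35 and 3.35 against 4.33, 4.42 and 4.42. It fell by 0.95 (SE 0.119, adjusted p = 0.00339) with no overlap, and a second probe fell by 0.90; under median scaling the difference was -0.65 (adjusted p = 0.0764).

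Klc2, by contrast, read 0.65, 0.62 and 0.73 against 0.21, 0.34 and 0.21, a small rise of 0.42 (SE 0.102, adjusted p = 0.0289). Its groups did not overlap, but the call was lost whenever any 1 array was left out, for example without Foxo3 siRNA replicate 3 (0.38, adjusted p = 0.0987). Klc1, the most studied light chain, gave 0.29 (95% interval -0.01 to 0.60, adjusted p = 0.124) and was not called. Of the 4 light chains, 3 were thus called, 2 lower and 1 higher, where 27.6% of all features were called.

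**Figure D4:**
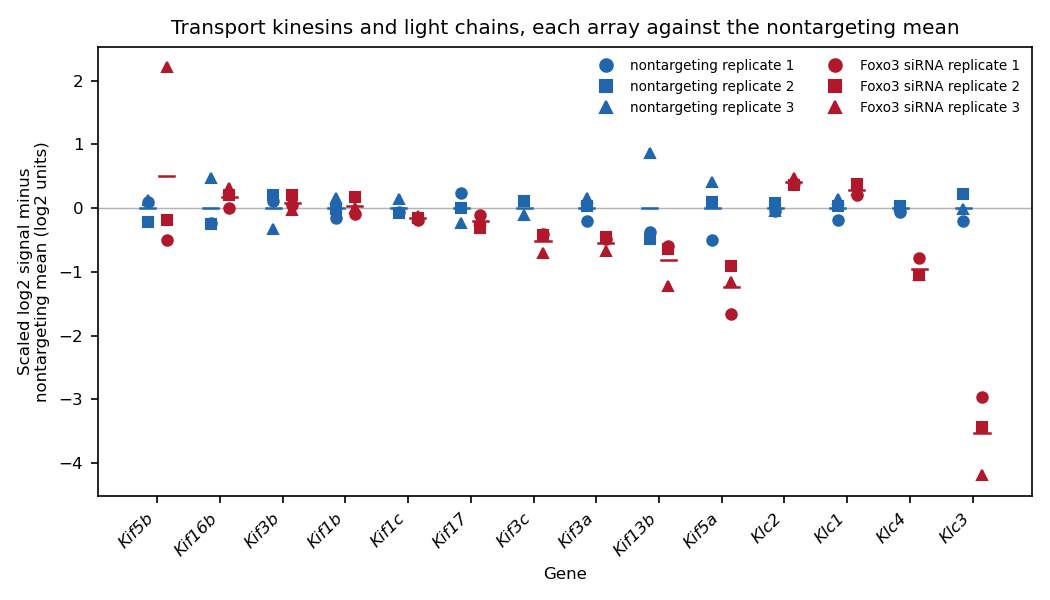
Each array's scaled log2 signal minus the mean of the 3 nontargeting arrays (y axis, log2 units) for the 10 tested transport kinesins and 4 light chains (x axis), with 1 symbol per replicate and a dash at each group's mean. Most red and blue points lie within 1 unit of each other; Klc3 is far lower with Foxo3 siRNA, and the Kif5b mean is raised by replicate 3 alone.

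Set side by side, the 10 tested mitotic kinesins differed by 0.21 (Kif14) to 3.38 (Kif2c, whose size is not firm) and the 14 tested transport kinesins and light chains by -3.53 to 0.51. Median scaling shifted both groups up, the mitotic median to 2.04 and the transport and light chain median to 0.13, and kept the 9 mitotic calls. It left 2 of the 4 lower calls, those of Klc3 and Kif5a. Without Foxo3 siRNA replicate 3, 2 transport and light chain genes were called lower and 0 higher. The same counts came from the fit with slide row as a block, in which Klc3 and Klc4 were the genes called lower and Kif5a was not (-1.65, adjusted p = 0.0577), and within row 1 alone 1 was lower and 0 higher.

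Most of the remaining kinesins were not called or were too dim to test. Kif24, a centrosomal kinesin that holds back the growth of cilia in dividing cells, read 2.38, 2.50 and 2.62 against 1.59, 1.86 and 1.61, a rise of 0.81 (SE 0.126, adjusted p = 0.00665) with no overlap. Kif2a, a microtubule-shortening motor of spindle poles and neurons, read 4.22, 4.06 and 3.93 against 4.45, 4.55 and 4.80 on its brightest probe. This was a fall of 0.53 (SE 0.14, adjusted p = 0.0364), but its probes differed: another gave -0.57 (adjusted p = 0.0511) and the last 0.06 (adjusted p = 0.794). Under median scaling Kif2a gave -0.22 and was not called. Kif24 was kept without Foxo3 siRNA replicate 3 (0.75, adjusted p = 0.0293) and Kif2a was not (-0.46, adjusted p = 0.115). With slide row as a block Kif24 gave 0.69 and was not called either (adjusted p = 0.0742).

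Kif6, a motor linked to motile cilia, read -4.28 and -3.71 on 2 Foxo3 siRNA arrays, both within background, and -1.17, -2.85 and -2.75 with nontargeting siRNA; Foxo3 siRNA replicate 2 was left out as an outlier spot. The fitted difference of -1.73 did not pass (adjusted p = 0.0677). With the outlier spot kept it was -0.60 (adjusted p = 0.652), so the size of any difference in Kif6 rests on leaving out that spot. Kif7, which works at the tip of the cilium in hedgehog signalling, gave 0.21, Kif9 gave 0.05 and Kif21b, a regulator of microtubule growth, gave 0.03. Kif19a, which shortens ciliary microtubules, gave -0.34, and Kif26a and Kif26b, atypical kinesins without motor activity, gave -0.58 and -0.60. None of these passed, nor did the pseudogene Kif4-ps at -0.44. The tested probes of Kif26a and Kif26b were dim, well above background on 2 Foxo3 siRNA arrays and 3 nontargeting arrays. That of Kif26b is annotated to another transcript, and the probe for its RefSeq messenger RNA was above background on 0 arrays of either group. Kif12, Kif21a, Kif27 and Kif2b were not tested, being too dim in both groups.

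At the level of single probes, 45 of the 72 were usable, and 19 of them were called, 11 higher and 8 lower, where 25.4% of all usable probes were. In 8 genes several probes were usable. No gene had probes called in opposite directions, while in 3 genes (Kif2a, Kif3b and Kif9) the probes differed in sign. Kif9 had 4 usable probes, from -0.53 to 0.25, and none was called. The pairs of Klc3, Klc4 and Kif3a were each called lower by both probes.

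**Figure D5:**
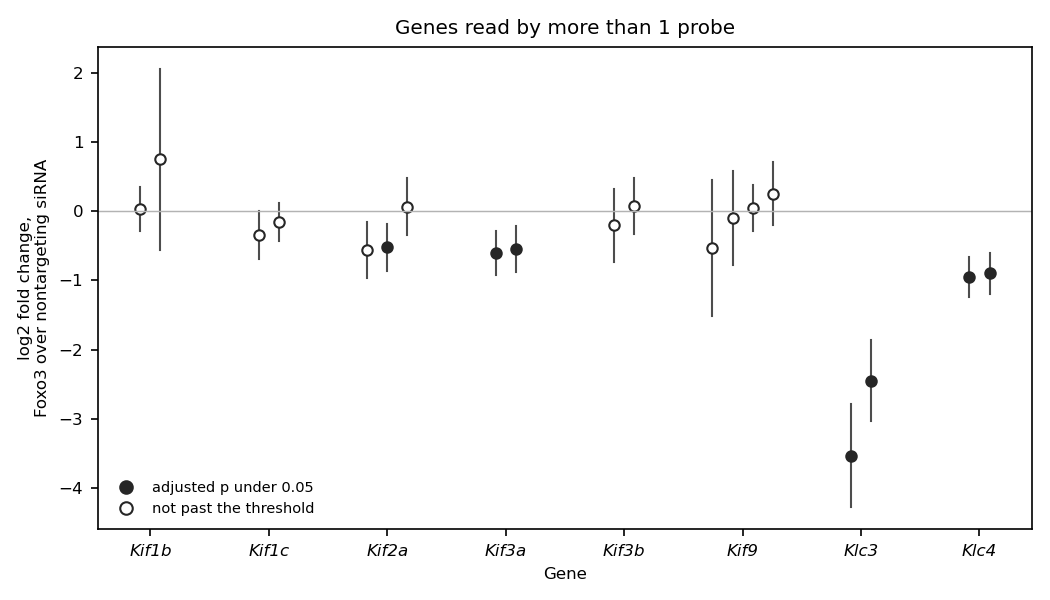
Difference of each usable probe (y axis, log2 fold change, Foxo3 siRNA over nontargeting siRNA, 3 arrays each) with its 95% confidence interval, for the 8 genes with more than 1 usable probe (x axis); filled points passed adjusted p under 0.05. Both probes are filled and below 0 for Kif3a, Klc3 and Klc4, and 1 of 3 is filled for Kif2a.

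Lists of genes that work beside the transport motors, and of the microtubules themselves, held calls in both directions or a few in 1 direction. Of 18 genes for adaptors that tie kinesins to cargo, 15 were tested, 4 were called higher and 0 lower, with a median of 0.21. This is 26.7% called, all higher, where 27.6% of all features were called and 13.8% were called higher. The adaptors called were Kifap3, the non-motor subunit of kinesin-2 (0.88), and Clstn3, which binds light chains (0.72). Also called were Trak1, a link between kinesin and mitochondria (0.67), and Rhot1, its receptor on the mitochondrial surface (0.46). Kifap3 therefore rose where the motor subunit Kif3a fell. Its probe was dim, well above background on 2 Foxo3 siRNA arrays and 3 nontargeting arrays, and the Kif3a call was lost in 11 of 19 alternatives. Dynein and dynactin, which move cargo in the other direction, had 2 genes called higher and 2 lower of 20, or 20%, below the share of all features: Nde1 (0.89), a dynein regulator also used in mitosis, Dctn3 (0.47), Dynll2 (-0.52) and the heavy chain Dync1h1 (-0.46). Of 19 tested tubulins and microtubule regulators 6 were called higher and 3 lower (47.4%), led by Ckap5 (1.58), a microtubule polymerase of the spindle, Tubg1 (0.70), the gamma-tubulin that seeds microtubules, Clasp1 (-1.26), which stabilises microtubule ends, and Tuba1a (-1.39), an alpha-tubulin abundant in neurons.

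Markers of other cells were set beside these results. Summed neuron markers were 36.9 to 39.1 with Foxo3 siRNA and 39.9 to 55.8 with nontargeting siRNA, nearly all of it from Snap25. Erythroid markers summed to 3390 to 4579 and 4933 to 5432, with Rhag (1.41) and Tfrc (0.61) higher, Alas2 lower (-0.40), and Hba-a1 at -0.45 (adjusted p = 0.0636). Megakaryocyte markers summed to 39.6 to 70.5 and 38.4 to 58.4, with 3 of 6 called higher, Treml1 (2.51), Itga2b (1.27) and Gp1ba (0.59), and Ppbp above background on 0 arrays. The share called higher over all features was 13.8%. Macrophage markers summed to 4.92 to 6.35 and 7.29 to 13.4, with 0 of 3 called. Csf1r (-0.91, adjusted p = 0.0622) and Cd68 (-0.37, adjusted p = 0.0512) were above background on all 6 arrays, and C1qa and Mrc1 were among those above it on 0. Lymphocyte markers summed to 14.7 to 16.9 and 15.3 to 23.0, with 0 of 3 called. Cd4 (-0.21) and Cd3e (-0.48) were above background on all 6 arrays, and Cd8a, Ms4a1 and Pax5 were among those above it on 0. Fibroblast markers summed to 0.226 to 0.414 and 0.253 to 0.370, with Col1a1, Dcn and Pdgfra above background on 0 arrays. Their part in the kinesin results was not tested.

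The authors' deposited table gave the same direction for the genes called here. In the authors' deposited table, Kif4 was higher by 2.37 (adjusted p = 0.0134), Kif23 by 2.12 (adjusted p = 0.014) and Kif11 by 1.49 (adjusted p = 0.0222). In the authors' deposited table Kif22 was at 0.90 with an adjusted p of 0.0656, so 8 mitotic genes passed there in place of 9. Klc3 was at -3.17 (adjusted p = 0.0201) and Klc4 at -0.94 (adjusted p = 0.0459) in the authors' deposited table, which called 4.51% of the features.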

How the data were processed

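The members and the gene lists were chosen with earlier results of these data known. The deposited intensity values are output of Agilent's Feature Extraction software, version 10.7.3.1 per the file headers: background was subtracted, and signals within background were replaced by a surrogate. The deposited log2 fold change and adjusted p-value came from limma, per the submitters' processing notes, and the normalization behind them is not given in the sources used here.

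Here control spots and outlier spots were left out, log2 intensity was reduced by each array's 75th percentile, and spots of 1 probe were averaged. Probes that no group had well above background on its 3 arrays were dropped, leaving 26991, and of a gene's remaining probes the brightest was used. Kif and Klc names were those of the array; 63 of the 72 probes were matched to RefSeq by accession. limma 3.58.1 in R 4.3.3 was fitted to all 6 arrays without covariates (lmFit, eBayes, two-sided, Benjamini-Hochberg over all features), and was tested on simulated data. There it recovered 52% of changes of 1 log2 unit and 81% of changes of 2 log2 units, with 3 false calls. A gene that was not called may therefore still differ. Every member is accounted for: those past adjusted p 0.05 and every mitotic kinesin with a kept probe are given array by array, and of the other lists up to 4 genes with the smallest adjusted p are named; some marker genes are not reported here. Where a gene was not well above background on any array of 1 group, the brighter mean was set against that group. Each array there counted at the lowest signal well above background of any probe, or at the gene's own signal if higher. The resulting fold is not a strict lower limit. With 3 arrays per group, their number limits the precision. Alternatives changed the scaling, background correction, filter, outlier spots, choice of probe, covariates and arrays used.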

Additional observations from a re-analysis of the deposited data

How the results depend on the processing

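Over 19 alternatives, 7 of the 16 called kinesin genes (Klc3, Kif4, Kif23, Kif18b, Kif20b, Kif11 and Kifc1) kept their call under each that gave a value for them, and none of the 16 changed sign. The number of mitotic genes called higher was 9 and ranged from 6 to 10. The number of transport kinesin and light chain genes called lower was 4 and became 2 under median scaling, with probes required to be well above background on all 6 arrays, without a filter on dim probes, with slide row as a block and in the authors' deposited table, 1 within slide row 1, and 5 with normexp and with array weights. The 1 higher call, Klc2, became 0 without a filter, with the replicate block, with slide row as a block, within row 1 and in the authors' deposited table. Calls among other kinesins went from 2 to 5 with normexp, to 1 with the mean of a gene's probes, and to 0 without a filter, with row as a block, within row 1 and in the authors' deposited table. The mitotic median of 1.73 moved to 2.04 under median scaling and 1.43 with normexp. The transport and light chain median of -0.18 moved to 0.13 under median scaling, 0.055 with the all-array filter and 0.032 without a filter. Kinesin probes called fell from 19 to 11 without a filter, 12 with row as a block, 7 within row 1 and 11 in the authors' deposited table; features called fell from 5299 to 1175, 1551, 600 and 866 under the same 4 settings, and higher features then made up 67.5%, 62.6%, 67% and 68.6% of calls. Leaving out 1 array at a time gave 9 to 10 mitotic genes higher, 2 to 4 transport and light chain genes lower and 0 higher, 1 to 2 others, 14 to 18 probes, and 2172 to 4551 features. The medians then ran from 1.70 to 1.81 and from -0.31 to -0.13. Deviations of Foxo3 and nontargeting arrays of the same number correlated at 0.16, -0.31 and 0.11, and not every array correlated best with its own number. With 3 arrays per group, this cannot show whether a number marks a shared culture. With the replicate block 5486 features, 9 mitotic genes, 3 lower transport and light chain genes, 2 others and 17 probes were called. The weak signals of Foxo3 siRNA replicate 3 limit what can be said of dim probes, Kif2c, Kif15, Kif18a, Kif14, Kif5a and Klc3 among them. The causes of these shifts were not tested. The planned protein comparison was not run.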
